A study of Homo sapiens with 7 samples.

Results

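The genes described here are 8 transcription factor genes of blood stem and progenitor cells, IKZF1, IKZF2, LMO2, LYL1, MYB, PBX3, HLF and MECOM, in Kasumi-1 cells after knockdown of PHF19. They were followed through every deposited chromatin region that the authors assigned to 1 of them as the nearest gene, which gave 19 of the 8815 regions listed as changed. All 19 were among the 8615 regions listed as increased in knockdown cells and 0 were among the 200 listed as decreased, where 16.4% and 0.380% of the 52675 tested regions were listed. The genes were chosen because they had listed regions, so these counts, folds and false discovery rates (FDR) describe the choice and test nothing.

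Kasumi-1 is an established acute myeloblastic leukaemia line with the fusion of RUNX1 to RUNX1T1. Open chromatin was mapped by ATAC-seq (a transposase cuts accessible DNA and adds sequencing adapters) in 3 libraries from cells given an shRNA against PHF19 and 4 libraries from cells given a scrambled shRNA, which are titled Control and have WT as their treatment label. PHF19 was silenced with a lentiviral vector that carries green fluorescent protein and puromycin resistance. Both groups had puromycin at 2 µg/ml from 48 hours after the shRNA for at least 24 hours, and were lysed at 10000 cells per library. Every library is of this 1 line, and nothing in the labels says how many shRNA sequences were used or whether the libraries within a group are separate cultures. The authors' FDR is therefore set against a spread between libraries that may be only technical. Values are the authors' group means of normalised reads per region, with no value per library, so no SD can be given and the depth per library is unknown. No transcript or protein level of PHF19 was analysed here, so the knockdown itself has no check in these values.

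PHF19 is a Polycomb-like accessory subunit of Polycomb repressive complex 2 (PRC2), the enzyme that methylates histone H3 at lysine 27 and keeps developmental genes silent. The 8 genes encode DNA-binding proteins or their adaptors that hold blood cells in a stem or progenitor state or direct them to a lineage. IKZF1 (Ikaros) and IKZF2 (Helios) are zinc finger proteins of lymphoid and progenitor cells that recruit chromatin-remodelling and repressor complexes. LMO2 is a LIM-domain adaptor that joins basic helix-loop-helix proteins such as LYL1 to GATA factors through LDB1, and MYB is required for definitive blood formation. PBX3 is a homeodomain cofactor of HOXA proteins, HLF is a PAR-type leucine zipper factor of haematopoietic stem cells, and MECOM encodes the stem cell factor EVI1.

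Promoter sequences are shown for the 3 genes with a region annotated within 1 kb of a transcription start site (TSS) for which a RefSeq start could be set beside the deposited one. They are RefSeq sequences of build GRCh38.p14, from 250 bases before to 50 bases after the start. The deposited gene coordinates are of another build, read as hg19, so no base of the sequences was placed inside a deposited region. The lines give LYL1 at chr19:13102809-13103108 on the minus strand, IKZF2 at chr2:213152407-213152706 on the minus strand and PBX3 at chr9:125747933-125748232 on the plus strand. Capitals mark matches on either strand to GATAA (GATA factors), TGTGGT (RUNX factors), CANNTG (the E-box of helix-loop-helix factors) and CCAAT.
LYL1: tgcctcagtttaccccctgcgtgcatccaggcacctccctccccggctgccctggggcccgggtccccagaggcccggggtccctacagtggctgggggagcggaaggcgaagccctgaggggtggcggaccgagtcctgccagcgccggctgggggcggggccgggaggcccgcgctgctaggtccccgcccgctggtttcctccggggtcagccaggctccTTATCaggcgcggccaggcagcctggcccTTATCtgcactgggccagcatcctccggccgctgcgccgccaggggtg
IKZF2: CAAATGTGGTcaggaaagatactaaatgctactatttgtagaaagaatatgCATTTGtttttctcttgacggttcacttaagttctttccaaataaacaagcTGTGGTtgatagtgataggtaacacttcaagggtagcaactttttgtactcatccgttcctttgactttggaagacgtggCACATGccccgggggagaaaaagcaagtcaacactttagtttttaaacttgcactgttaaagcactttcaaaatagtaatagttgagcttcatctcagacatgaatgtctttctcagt
PBX3: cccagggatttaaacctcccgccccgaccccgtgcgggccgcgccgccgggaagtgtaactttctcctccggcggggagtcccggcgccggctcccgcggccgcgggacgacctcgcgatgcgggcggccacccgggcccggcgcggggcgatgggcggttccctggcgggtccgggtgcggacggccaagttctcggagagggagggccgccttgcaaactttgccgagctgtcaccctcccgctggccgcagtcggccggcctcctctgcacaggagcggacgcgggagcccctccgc
The LYL1 sequence held GATAA at 2 places and none of the other 3 motifs, and GATAA occurred in 22.7% of the 35116 RefSeq promoters. The IKZF2 sequence held TGTGGT at 2 places, found in 13.1% of promoters, and CANNTG at 3 places, found in 68.7%. The first TGTGGT of IKZF2 overlaps an E-box match. The PBX3 sequence held none of the 4, and CCAAT, in 34.6% of all promoters, occurred in none of the 3. AACNG, a MYB core, occurred 3 times in the IKZF2 sequence and once each in the LYL1 and PBX3 sequences, against 77.2% of promoters with at least 1. The Ikaros core TGGGAA, the PAR leucine zipper motif TTANNTAA, the PBX-HOX motif TGATTNAT and TATAAA had 0 matches in these 3 windows, and occurred in 24.0%, 5.63%, 2.82% and 11.5% of all promoters. CG dinucleotides numbered 23 at LYL1, 4 at IKZF2 and 43 at PBX3, with a median of 14 over all promoters. A match is a run of letters and not a bound site.

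Lengths show how near these starts are to the deposited ones. From the start to the 3′ end of the gene, LYL1 measured 3826 bp in RefSeq and 4133 bp in the deposited annotation, a RefSeq start 307 bp further inside the gene if the 3′ ends are the same. The PBX3 start lay 17 bp from the start of the second deposited PBX3 transcript by the same measure, which is not the transcript that the PBX3 promoter region is annotated to, and the IKZF2 start lay 836 bp outside the deposited one. By the same measure, the nearest RefSeq start of IKZF1 differed by 5179 bp from a deposited start, so no IKZF1 promoter is shown. The deposited start in this comparison is not the one that the IKZF1 promoter region covers, and lies 22.8 kb from this region. The measure assumes equal gene lengths in both builds, which was not checked at IKZF1. It therefore cannot say whether RefSeq has a start near the covered one.

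IKZF1 had 6 increased regions, the most of the 8 genes, and the largest change. The leading region lay at chromosome 7, 50424317 to 50424717, in intron 3 of 3 of a deposited IKZF1 transcript. This transcript ends at 50437142 and another deposited one at 50472798. The intron is therefore not shown to be the last of the gene. The region lay 57.1 kb inside the nearest deposited start and 79.9 kb inside the start that the IKZF1 promoter region covers. Both distances are counted in the deposited coordinates. They may differ in GRCh38.p14, where the farthest RefSeq start lies 100386 bp from the 3′ end. The authors' mean in this region was 37.6 normalised reads in knockdown cells and 8.13 in control cells, a deposited log2 fold of 1.78 (FDR 2.9e-06). This region ranked 55 by fold and 116 by p-value among the 8615 increased regions. The IKZF1 promoter region, which covers a deposited start at 50344378, had means of 21.9 reads in knockdown cells and 8.65 in control cells (log2 fold 0.995, FDR 0.0118).

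The other 4 IKZF1 regions were intergenic and upstream. A region 37.6 kb before the start had 22.6 reads in knockdown cells and 9.66 in control cells, with a log2 fold of 0.94. The remaining 3 formed a group of 11.7 kb, at 97.8, 91.2 and 86.5 kb before the start. Their means were 11.5, 36.2 and 16.0 reads in knockdown cells and 3.49, 19.7 and 6.70 in control cells, with log2 folds of 1.001, 0.72 and 0.87. The middle region of this group was the most open of the upstream regions in either condition and had the smallest log2 fold of all IKZF1 regions. No deposited region of another gene lay within 150 kb of the 3, so they have IKZF1 as their nearest gene by the authors' annotation alone, and nothing here links them to its promoter.

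IKZF1 lies on chromosome 7, which held 1042 of the 8615 increased regions (12.1%). The median log2 fold was 0.97 over the 6 IKZF1 regions and 1.05 over all increased regions of chromosome 7. Of 5776 genes with an increased region, 67 (1.16%) had at least 6, so a count of this size was uncommon but not unique to IKZF1. IKZF1 was among genes chosen for having listed regions, and its intergenic regions were assigned by nearest gene, so this share tests nothing. The part of the chromosome in these values was not tested.

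**Figure D1:**
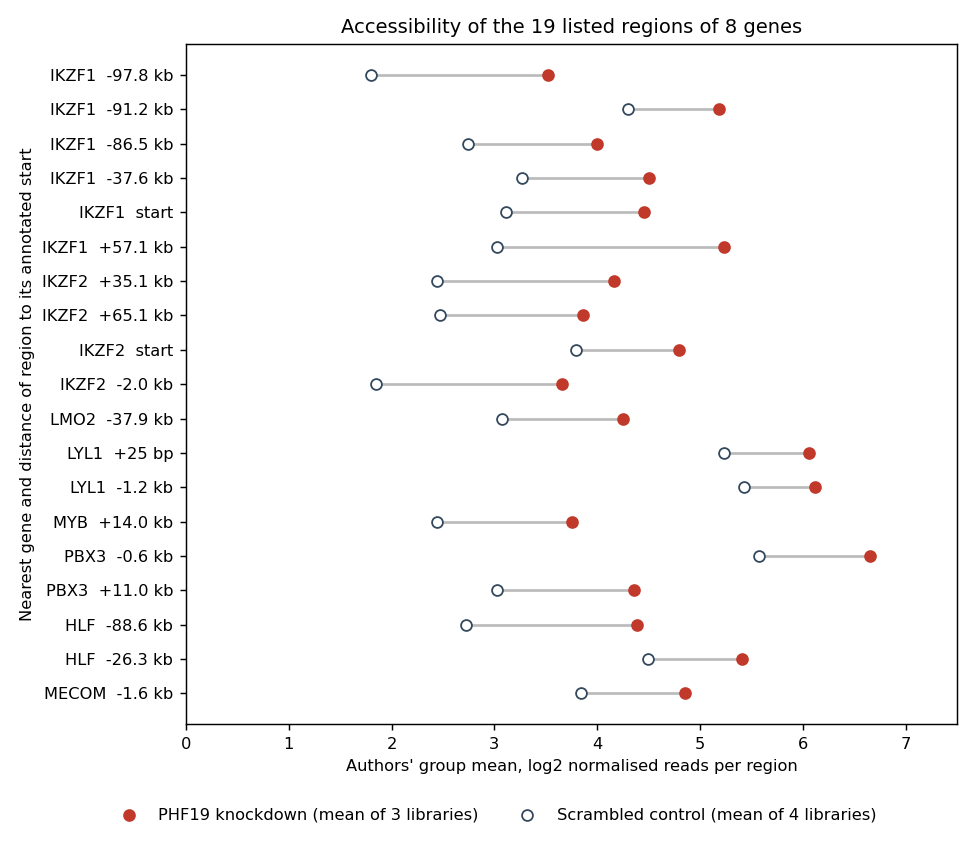
Authors' group means of the 19 regions on a log2 scale of normalised reads (x axis), with filled points for the PHF19 knockdown and open points for the scrambled control, and regions (y axis) named by gene and distance to the nearest annotated start. The knockdown point lies right of the control point in each region, which the choice of regions fixes, and the widest gap is at the intronic IKZF1 region (5.23 in knockdown cells against 3.02 in control cells).

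IKZF2 had 4 increased regions, 2 at the promoter, 1 in an intron and 1 beyond the gene. The region that covers a deposited IKZF2 start, at chromosome 2, 214016132 to 214016849, was 718 bp wide and had 27.8 reads in knockdown cells and 13.8 in control cells (log2 fold 0.80, FDR 0.0315). The second promoter region lay 2026 bp upstream, 1509 bp beyond the first, with 12.6 reads in knockdown cells and 3.60 in control cells (log2 fold 1.11). It was thus the less open of the pair and had the larger fold. Such an order, here and at IKZF1, LYL1 and HLF, can be built in by the FDR limit of the lists. A region with few reads needs a larger fold to be listed. Whether the limit made the order at these genes was not tested. All increased promoter regions had a median control mean of 22.9 reads and a median log2 fold of 0.89. All increased intronic regions had 5.28 reads and 1.03.

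The intronic IKZF2 region, in intron 3 of 8 and 65.1 kb inside the nearest deposited start, had 14.6 reads in knockdown cells and 5.53 in control cells (log2 fold 0.95). The largest fold at IKZF2 was at chromosome 2, 213844518 to 213844918, with 17.9 reads in knockdown cells and 5.42 in control cells (log2 fold 1.21, FDR 0.00462). The deposited distance of this region, 35.1 kb, refers to the start of a short transcript of 15586 bp. Counted along the gene, the region lies 19.5 kb past the 3′ end and 171 kb from the start covered by the promoter region, so it is downstream of IKZF2.

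LMO2 had 1 increased region, intergenic and 37.9 kb upstream of its deposited start, at chromosome 11, 33951778 to 33952178. The mean was 19.1 reads in knockdown cells and 8.41 in control cells (log2 fold 0.86, FDR 0.0337). No LMO2 promoter region was listed, which does not show that the promoter did not change.

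LYL1 had 2 increased regions, both at the promoter and 1198 bp apart. The region at chromosome 19, 13213549 to 13213949, begins 25 bp inside the deposited start and had 66.8 reads in knockdown cells and 37.5 in control cells (log2 fold 0.74, FDR 0.0105). The region 1174 bp upstream had 69.3 reads in knockdown cells and 42.9 in control cells (log2 fold 0.59, FDR 0.0418). These were among the most open regions of the 8 genes and had the smallest promoter folds among them, and the second ranked 8586 by fold among the 8615 increased regions, whose smallest log2 fold was 0.59.

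MYB had 1 increased region, at chromosome 6, 135530905 to 135531305, with 13.5 reads in knockdown cells and 5.44 in control cells (log2 fold 0.88). Its FDR of 0.0485 was the highest of the 19 and close to the largest listed value, 0.04999. The region lay in intron 14 of 14 of a long MYB transcript. The deposited distance of 14.0 kb refers to a short transcript of 1576 bp inside the gene, so it is not the distance to the main MYB promoter.

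PBX3 had 2 increased regions. The promoter region at chromosome 9, 128508571 to 128508971, ends 646 bp before the deposited start and was the most open of the 19, with 101 reads in knockdown cells and 47.7 in control cells (log2 fold 0.96, FDR 0.000474). The other lay in intron 2 of 8, 11.0 kb inside the nearest deposited start, with 20.5 reads in knockdown cells and 8.12 in control cells (log2 fold 0.95, FDR 0.0189). The log2 folds of the pair were 0.96 and 0.95 while the means of reads over all libraries were 70.4 and 13.4.

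HLF had 2 increased regions, both intergenic and upstream. The region 88.6 kb before the start, at chromosome 17, 53253330 to 53253730, had 20.9 reads in knockdown cells and 6.61 in control cells (log2 fold 1.18, FDR 0.00537). The region 26.3 kb before the start had 42.4 reads in knockdown cells and 22.6 in control cells (log2 fold 0.78, FDR 0.0189). The nearer region was the more open and had the smaller fold, an order that the FDR limit of the lists can build in.

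MECOM had 1 increased region, annotated to the promoter 1591 bp upstream of a deposited start, at chromosome 3, 168867113 to 168867513. Its mean was 28.8 reads in knockdown cells and 14.3 in control cells (log2 fold 0.78, FDR 0.0382). The deposited transcript spans 64236 bp. RefSeq has 3 MECOM starts, 1 of them 580206 bp from the 3′ end and the others 63965 and 63033 bp from it, so by length the deposited start is that of the short EVI1 form and not that of the long MDS1-EVI1 form.

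**Figure D2:**
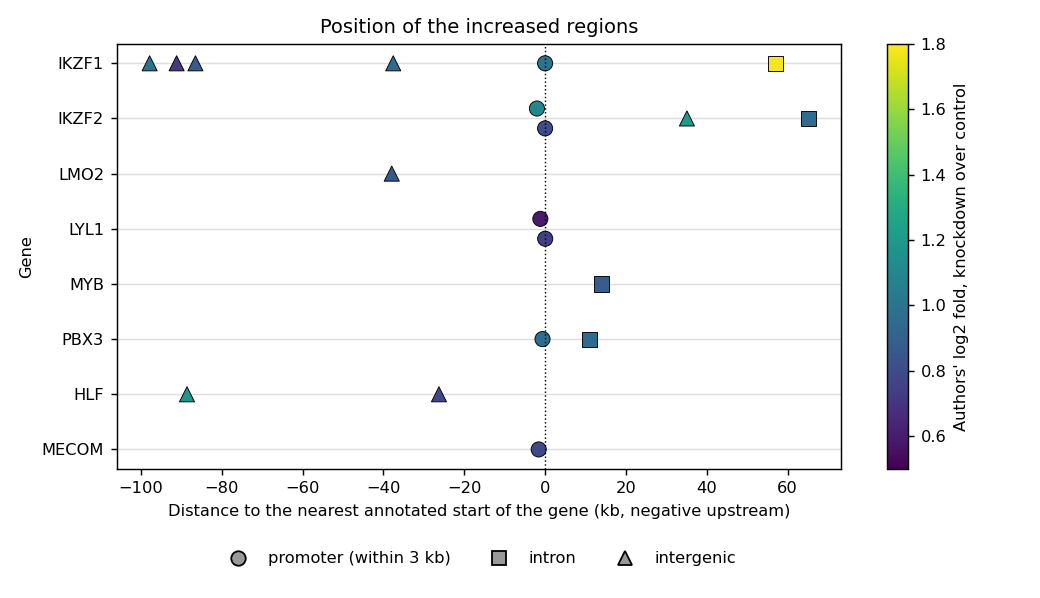
Distance of each of the 19 regions to the nearest deposited start of its gene in kb (x axis, negative upstream) by gene (y axis), with the authors' log2 fold as colour and the annotation as symbol. Regions spread from 97.8 kb upstream to 65.1 kb inside, IKZF1 and HLF lie largely upstream, and the brightest symbol is the intronic IKZF1 region (1.78). Distances use the nearest transcript, which is a short one at MYB and at the intergenic IKZF2 region.

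Among the 19 regions, 7 lay at promoters (within 3 kb of a start), 4 in introns and 8 between genes. Promoter regions made up 36.8% of the 19 and 50.1% of all increased regions, and regions that cover a start 10.5% and 34.6%. Intergenic regions made up 42.1% of the 19 and 26.8% of all increased regions. IKZF1, IKZF2, LYL1, PBX3 and MECOM had a promoter region, whereas LMO2 and HLF had intergenic regions alone and MYB an intronic one alone. None of these shares was tested, since the genes were chosen on the same lists.

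Levels can be set side by side per length, as reads per 100 bp of region, though without an SD no order of close neighbours can be settled. The PBX3 promoter was highest, with 25.1 in knockdown cells and 11.9 in control cells, followed by the LYL1 promoter regions, with 17.3 and 16.6 in knockdown cells and 10.7 and 9.34 in control cells. The HLF region at 26.3 kb had 10.6 in knockdown cells and 5.63 in control cells. The intronic IKZF1 region had 9.37 in the knockdown, near the 9.03 of the IKZF1 region at 91.2 kb, but 2.03 in control cells, against 4.90 there. The lowest level in both groups was at the IKZF1 region 97.8 kb upstream, with 2.86 in knockdown cells and 0.870 in control cells.

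The median log2 fold was 0.94 over the 19 regions, with a range of 0.59 to 1.78, and 0.97 over all increased regions. By class, the median of the regions of the 8 genes was 0.80 at promoters, 0.95 in introns and 0.90 between genes, and that of all increased regions was 0.89, 1.03 and 1.03. The ratio of the authors' mean reads, knockdown over control, ran from 1.62 at the upstream LYL1 region to 4.62 at the intronic IKZF1 region. In each of the 19, the fold that the authors deposited was smaller than this ratio, and how it was estimated is not stated.

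An FDR of at most 0.01 was met by 4 of the 19 regions (21.1%), 1 each at IKZF1, IKZF2, PBX3 and HLF, and by 45.9% of all increased regions. An absolute log2 fold of at least 1 was met by 5 regions (26.3%), at IKZF1, IKZF2 and HLF, and by 43.4% of all increased regions. The mean over all libraries was under 10 reads in 4 regions (21.1%), at IKZF1, IKZF2 and MYB, and in 26.9% of all increased regions. No control mean of the 19 lay at the floor of 1 read, as 88 did among all increased regions.

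**Figure D3:**
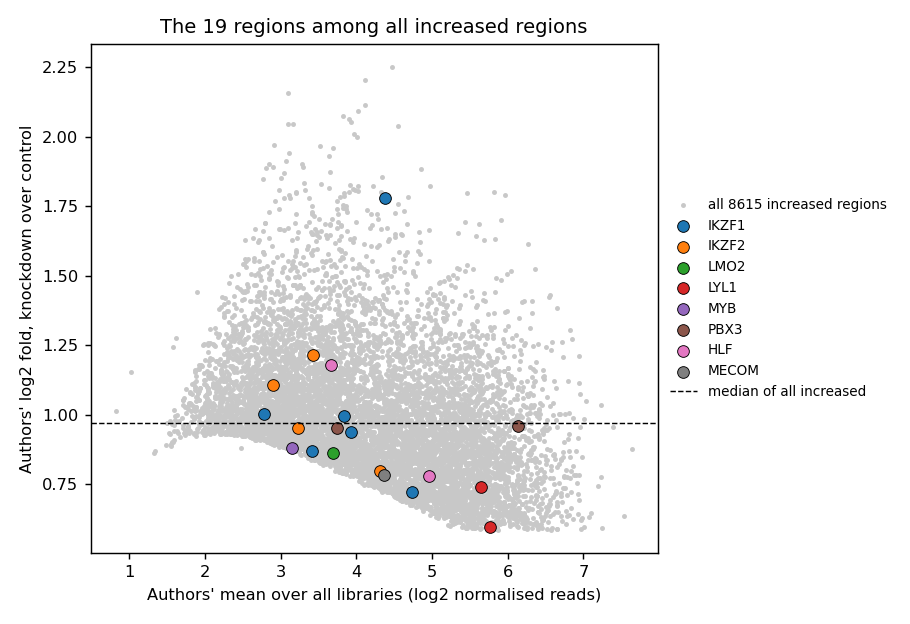
Authors' log2 fold (y axis) against the log2 mean of normalised reads over all libraries (x axis) for all 8615 increased regions in grey and the 19 regions coloured by gene, with a dashed line at the median fold of all increased regions (0.97). The intronic IKZF1 region stands at 1.78, the PBX3 and LYL1 promoter regions lie at the right, and the LYL1 regions lie at the lower edge of the cloud.

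Around the 19 regions, increased regions of 5 other genes and 0 decreased regions lay within 150 kb. Only 200 decreased regions were listed in all, against 8615 increased ones. The same counts were not made around other regions, so they have no background. FIGNL1 had 3 increased regions between 53.2 and 93.2 kb from the intronic IKZF1 region (log2 folds 1.28, 0.94 and 0.77). IER2, an immediate early gene, had 3 between 47.0 and 58.2 kb from the upstream LYL1 promoter region (0.81, 1.28 and 0.59). MAPKAP1 had 2, at 38.8 and 113 kb from the PBX3 promoter region (0.66 and 0.93). SPAG16-DT, a divergent transcript, had an increased region 130 kb from the upstream IKZF2 promoter region (1.94), and CAPRIN1 had 1 at 121 kb from the LMO2 region (0.91). HLF, MYB and MECOM had no listed region of another gene within that distance.

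Few relatives of the 8 genes in the same families had listed regions, in a list of 17 genes. The list was chosen with earlier results of these data known, and its shares were not tested. Of 17 paralogues, 2 (11.8%) had an increased region and 0 a decreased one, against 25.3% and 0.821% of all protein-coding genes. They were LMO4, a LIM-only relative of LMO2, at its promoter (58.4 reads in knockdown cells and 21.9 in control cells, log2 fold 1.22) and in an intron (0.83), and DBP, a PAR leucine zipper relative of HLF, at its promoter (29.8 reads in knockdown cells and 12.0 in control cells, log2 fold 1.03). IKZF3, IKZF4, IKZF5, TAL1, PRDM16, MYBL1 and MYBL2 were among those with no listed region.

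A larger share of the binding partners and cofactors had listed regions, a difference from the paralogues that was not tested. Of 24 genes, 10 (41.7%) had an increased region and 1 a decreased one, against 25.3% and 0.821% of all protein-coding genes. An increased promoter region was listed for 7 of them (29.2%), against 17.6% of all protein-coding genes. This list, which includes RUNX1, ERG and FLI1, was chosen with earlier results of these data known. Its shares therefore partly describe the choice, and were not tested. RUNX1 had 5 regions, the largest in an intron (37.6 reads in knockdown cells and 9.56 in control cells, log2 fold 1.63). CTBP1, a corepressor bound by Ikaros and EVI1, had 2 promoter regions (log2 folds 1.55 and 1.09). LDB2, a LIM-binding adaptor, had an intergenic region (1.21), and PKNOX1, a partner of PBX proteins, had 2 promoter regions (1.20 and 1.04). ERG, an ETS factor of stem cells, had 5 intronic regions (0.82 to 1.05) and FLI1, another, had 2 regions (0.98 and 0.77). The remaining genes with increased regions were CHD4, CREBBP, SIN3A and TCF3. The decreased region was at LDB1, the adaptor that binds LMO2, 2495 bp upstream of its start, with 7.47 reads in knockdown cells and 19.05 in control cells (log2 fold −0.96, FDR 0.0218), and LDB1 was singled out after its values were seen.

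Of 24 other stem and progenitor factors, 6 (25%) had an increased region and 1 a decreased one, beside 25.3% and 0.821% of all protein-coding genes. The largest log2 folds were at MEF2C in an intron (1.27) and at the EGR1 promoter (1.15), followed by ZBTB16 (1.08), ETV6 (1.01) and BCL11A (1.01) in introns and HOXA5 at its promoter (0.93). The decreased region covered a start of RUNX3, with 8.06 reads in knockdown cells and 19.4 in control cells (log2 fold −0.91), and was also singled out after its values were seen. Over the 3 lists together, 18 of 65 genes (27.7%) had an increased region, and the shares were not tested.

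**Figure D4:**
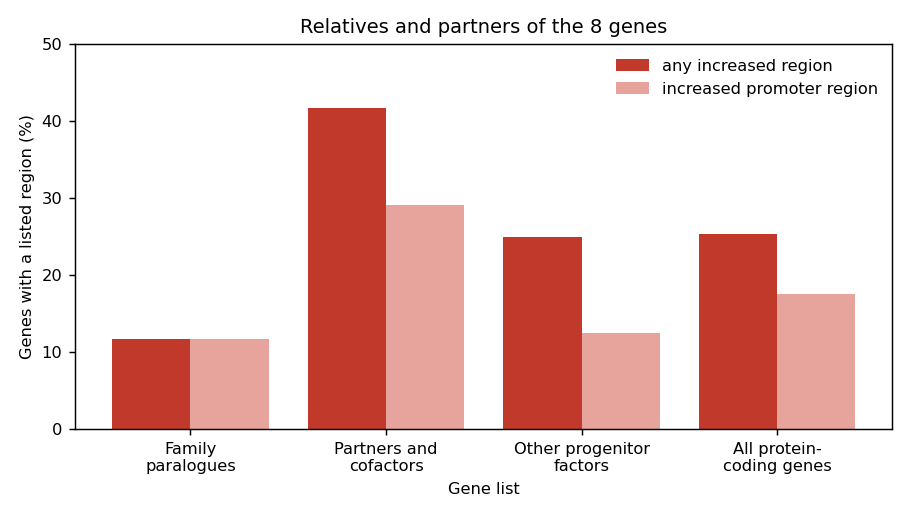
Percent of genes with at least 1 increased region of any kind (dark bars) and at the promoter (light bars) for 17 family paralogues, 24 partners and cofactors, 24 other progenitor factors and all 19970 protein-coding genes. Partners and cofactors stand at 41.7% and 29.2%, paralogues at 11.8% for both, and all protein-coding genes at 25.3% and 17.6%. The lists were chosen with earlier results of these data known, and differences between bars were not tested.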

How the data were processed

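ATAC-seq was run on 3 PHF19 knockdown and 4 scrambled control libraries of Kasumi-1 cells. The deposited data are a list of increased and a list of decreased regions with, per the file headers, log2 mean normalised reads over all libraries and per group, the log2 fold between groups with its p-value and FDR, all computed by the authors, and the nearest gene with its distance to the TSS. Bowtie2 2.4.1, Picard 2.2.4, deepTools 1.5.12, MACS2 2.2.6 and build hg38 are named per the submitters' processing notes, with no role or order. The normalisation, the tool behind the folds, the merging of regions and any transposase shift are not stated in the sources at hand. How many regions appear as increased or decreased can depend on these steps. Neither gene start nor gene end equalled that of GRCh38.p14 for any of the 19 regions, and 1 or the other did for 0.228% of 8787 matched regions. Coordinates are therefore printed as the files give them, counted from 1, and taken to be hg19. This check covers the gene coordinates and not those of the regions. Regions of another build than the genes would make the nearest genes and distances wrong. A deposited start was covered by 34.6% of all increased regions.

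The knockdown column was taken as the one higher in the increased list and lower in the decreased list. The overall mean weighted it by 0.429 (3 of 7 libraries), within 0.001 for 98.5% of regions. The number of tested regions came from the deposited p-values and FDR by rank, and was recovered in 3 of 3 simulated sets. Log2 means were converted to reads. Members are all regions whose deposited symbol is 1 of the 8 genes, and every gene was described. Of the 3 other lists, values were given for up to 6 genes with the largest absolute log2 fold, and for LDB1 and RUNX3 outside this rule. The members and lists were chosen with earlier results of these data known. No test was run, since folds and FDR chose the members and no value per library was analysed here. RefSeq tables supplied protein-coding gene counts and promoters, which 7 of the 8 genes had. Alternatives were stricter FDR and fold thresholds, distance limits, a read minimum, matching on gene identifier and the difference of the log2 group means. Python 3.11.15, pandas 2.3.3, numpy 2.4.6 and matplotlib 3.10.9 were used.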

Additional observations from a re-analysis of the deposited data

How the results depend on the processing

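Matching on the gene identifier or keeping regions within 100 kb of a TSS left all counts and the median log2 fold of 0.94 as they were, and the count of decreased regions was 0 under every alternative run. With an FDR of at most 0.01 there were 4 increased regions at 4 genes, 1 gene had a promoter region and the median log2 fold was 1.20. Requiring log2 folds of 1 or more gave 5 regions at 3 genes, 1 gene with a promoter region and a median of 1.18, both of which follow from selecting stronger regions. Within 10 kb of a TSS, 7 regions at 5 genes remained, with a median of 0.80. A mean of at least 10 reads left 15 regions at 7 genes and a median of 0.87. The difference of the log2 group means had a median of 1.25 over the 19 regions and 1.31 over all increased regions. Without IKZF1, a choice made after the data were seen, the median was 0.88. Leaving out single libraries was not run, since no values per library were analysed here. No paired analysis was possible because the columns carry group means and no replicate numbers. Depth per library is unknown, and the lowest control means, 3.49 and 3.60 reads, limit the precision of the folds at those IKZF1 and IKZF2 regions.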
